A study of Mus musculus with 24 samples.

Results

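Forebrain RNA of mice carrying the TgCRND8 transgene was compared between 80 and 70 days of age, with 4 mice at each age and 1 array per mouse, so that 8 of the 24 arrays in the series entered the comparison. The 8 arrays were chosen by their titles alone. TgCRND8 mice carry APPSwe/Ind, a human amyloid precursor protein with the Swedish and Indiana mutations of familial Alzheimer disease, expressed from the hamster prion protein promoter, so the transgene is active in neurons and in other brain cells. Wild-type littermates, 4 at day 70 and 4 at day 80, gave the same age step without the transgene. At 150 days, 4 mice of each genotype were profiled. The tissue was forebrain cut away from the olfactory bulb and from the cerebellum with brainstem, and each array measured a mixture of neurons, glia and vessels. In such bulk RNA, fewer cells of a type and less RNA per cell cannot be told apart. Values are the deposited log2 signals, with 1 probe set for each of 18193 genes, and differences are given as day 80 minus day 70 on the log2 scale.

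The Swedish mutation raises cleavage of the precursor by β-secretase, and the Indiana mutation shifts γ-secretase cleavage towards the longer, more readily aggregating amyloid-β peptide. Amyloid deposits form early in this line, and astrocytes and microglia around plaques then raise genes such as Gfap (an intermediate filament of astrocytes), Cst7 (a cysteine protease inhibitor), Tyrobp (the signalling adaptor of microglial receptors) and Trem2 (a lipid-sensing receptor paired with it). The step between days 70 and 80 asks what had changed in the forebrain before the large glial increase seen on the day 150 arrays.

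No gene passed the test between day 70 and day 80 in TgCRND8 mice. The lowest adjusted p was 0.164, from limma with Benjamini-Hochberg adjustment over all 18193 genes. Without adjustment, 1040 genes (5.72%) had a limma p under 0.05, of which 672 (3.69% of all genes) were higher and 368 (2.02%) were lower at day 80. Without overlap between the 4 day 80 arrays and the 4 day 70 arrays, 245 genes (1.35%) were higher and 126 (0.693%) were lower. The same step in the controls gave 0 genes past the adjusted threshold and 590 (3.24%) under the unadjusted one, and the difference between both steps gave 0 and 481 (2.64%). These percentages are the background for every count below, and the genes named below are those with the smallest p or members of named lists, none of which passed the adjusted test. The median standard error of a gene's day 80 minus day 70 difference was 0.10, so differences of that order could not be separated from the spread between mice.

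The day 80 arrays were less alike than the day 70 arrays. Their median pairwise correlation was 0.9926 against 0.9961 at day 70, the median SD of a gene was 0.15 against 0.11, and 69.4% of genes had the larger SD at day 80. Day 80 arrays 2 and 4 had the narrowest interquartile range of log2 signal, 2.99 on both, against 3.13 and 3.20 on arrays 3 and 1. On those arrays dim genes read higher and bright genes lower than at day 70, with medians of 0.11 (array 2) and 0.14 (array 4) in the third of 10 equal bins of genes by level and of -0.06 on both in the brightest bin. After quantile normalization, which gives each array the same distribution of values, the median difference in each bin lay between -0.004 and 0.01. Quantile-normalized medians are therefore given beside the gene lists below. The level of a list on an array is given as the mean, over its members, of the deviation from the mean of these 8 arrays.

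**Figure D1:**
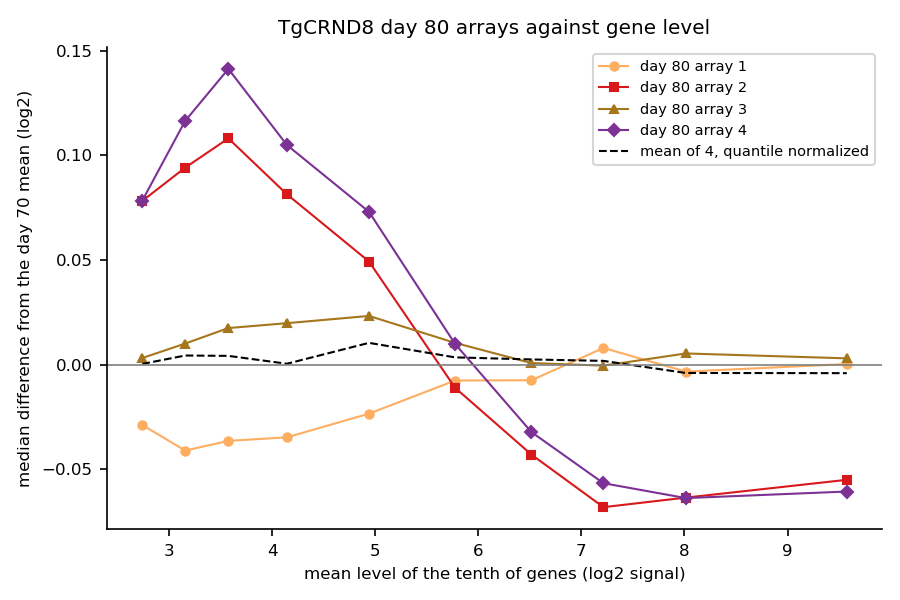
Median difference of each TgCRND8 day 80 array from the mean of the day 70 arrays (y, log2) against the mean level of each of 10 bins of genes (x, log2 signal), with the mean of the 4 day 80 arrays after quantile normalization as a dashed line. Arrays 2 and 4 lie above 0 among dim genes and below 0 among bright genes, while arrays 1 and 3 and the dashed line stay within 0.05 of 0.

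Xist, a non-coding RNA made from and silencing one X chromosome in female cells, divided the same arrays another way. Its log2 signal was 9.57, 9.72, 9.65 and 9.70 on the day 70 arrays and 3.32, 9.61, 3.07 and 9.38 at day 80. Eif2s3y, a translation factor subunit on the Y chromosome, was 2.50, 2.39, 2.52 and 2.43 at day 70 and 5.10, 2.55, 4.78 and 2.50 at day 80. Day 80 arrays 1 and 3 thus had low Xist with high Eif2s3y, and no day 70 array did. The labels give no sex. Among the controls, 1 array at day 70 and 2 at day 80 had low Xist. Since the high-Xist arrays at day 80 are the same arrays 2 and 4 that had the narrow signal range, both features cannot be told apart in this group. With only high-Xist arrays of all groups kept, which left 2 arrays at day 80, 162 genes (0.89%; 84 higher, 78 lower) passed the adjusted test. After quantile normalization of these arrays 51 (0.28%; 17 higher, 34 lower) passed. Without day 80 arrays 2 and 4, 3 genes (0.0165%) passed: Alas2, Tent5c and S100a8. This setting, also given below, sets the low-Xist arrays 1 and 3 against day 70 arrays that all had high Xist. In it age and Xist level cannot be told apart. Without array 1 alone 2 genes (0.011%) passed, 1500004A13Rik and Neurl1b, and without array 2 alone 2 (0.011%), Alas2 and S100a8. Values in these settings are given below beside the genes and lists the text dwells on.

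The granulocyte genes S100a8 and S100a9 had the smallest p among higher genes. Alas2, a gene of red cell precursors, ranked behind Abca8a, Csrnp1 and Adipor2 by p but had a larger difference. S100a8 and S100a9 encode the calcium-binding subunits of calprotectin, stored in neutrophils, and Alas2 encodes the erythroid enzyme that starts heme synthesis. S100a8 signal was 3.02, 2.99, 2.97 and 3.05 on the day 70 arrays and 3.74, 3.44, 3.86 and 3.54 on the day 80 arrays. All day 80 arrays lay above all day 70 arrays, and the difference was 0.64 ± 0.11 (SE), a 1.55-fold higher signal with a limma adjusted p of 0.164. The level is dim, within the lowest 17% of genes, and such signals understate a fold change. In the controls S100a8 averaged 3.12 at day 70 and 3.30 at day 80. S100a9 signal was 3.47, 3.83, 3.79 and 3.93 at day 70 and 4.63, 4.29, 4.80 and 4.77 at day 80, again without overlap, a difference of 0.87 ± 0.17 (SE) with a limma adjusted p of 0.33. The control difference for S100a9 was 0.34, and the TgCRND8 step exceeded the control step by 0.52 for S100a9 and by 0.46 for S100a8, neither of which passed (limma adjusted p = 0.9998 for both). By day 150 S100a8 averaged 3.22 and S100a9 4.00 in TgCRND8 mice, below their day 80 means of 3.65 and 4.63. S100a8 passed the adjusted test without day 80 array 2 (0.71, limma adjusted p = 0.0432) and without arrays 2 and 4 (0.79, limma adjusted p = 0.0253), and S100a9 passed with only high-Xist arrays (0.77, limma adjusted p = 0.041).

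Alas2 varied widely among the day 80 mice. Its signal was 4.83, 5.57, 5.49 and 4.79 at day 70 and 6.97, 5.27, 7.77 and 6.31 at day 80. Arrays 1, 3 and 4 lay above every day 70 array and array 2 lay among them, so the groups overlap, with an exact two-sided permutation p of 0.0857 against a smallest possible 0.0286. The mean difference was 1.41 ± 0.34 (SE; limma adjusted p = 0.575), against -0.15 in the controls. The value was 0.62 with only high-Xist arrays, 1.85 without day 80 array 2 (limma adjusted p = 0.0316) and 2.20 without arrays 2 and 4 (limma adjusted p = 0.0037). The last setting keeps only the low-Xist arrays 1 and 3 at day 80. Tent5c, a poly(A) polymerase abundant in erythroid and plasma cells, had a like order, at 3.36, 3.62, 3.55 and 3.16 at day 70 and 4.18, 3.23, 4.89 and 3.72 at day 80. Its difference of 0.58 became 1.11 without day 80 arrays 2 and 4 (limma adjusted p = 0.01) and 0.05 with only high-Xist arrays, and -0.06 when those were quantile normalized.

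Of all genes, 50.5% had a higher mean at day 80 in TgCRND8 mice as deposited, 50.5% after quantile normalization, 47.5% without day 80 arrays 2 and 4, and 48% in the controls, and counts of higher members are read against these shares. Over the 13 measured genes of a blood cell list, 12 were higher at day 80, 5 of them with an unadjusted limma p under 0.05 and none lower (background 3.69% and 2.02%). The 5 were S100a8, S100a9, Alas2, Ngp (a neutrophil granule protein, 0.23) and Pf4 (a platelet chemokine, 0.19). The list's median difference was 0.18, against 0.001 over all genes, 0.14 after quantile normalization, 0.06 without day 80 arrays 2 and 4, and -0.02 in the controls. The list lay between -0.17 and -0.13 on the day 70 arrays and between 0.08 and 0.22 on the day 80 arrays. The globin genes did not share the size of the Alas2 difference: Hba-a1 averaged 2.72 and 2.78 and Hbb-b2 4.16 and 4.27 at days 70 and 80, and Slc4a1, the red cell anion exchanger, averaged 3.0 and 3.06. The blood cell list was itself written with earlier results of these data known. The next lists, of erythroid and neutrophil genes, were drawn up after these values had been seen and are given as descriptions only. They share members with the blood cell list, among them Alas2, S100a8, S100a9 and Ngp, so the counts are not independent. Of 21 erythroid genes, 15 were higher, 5 with an unadjusted limma p under 0.05 (Alas2, Tent5c, Klf1, Isg20 and Fech), and 1 was lower at that p (Tmod1). Klf1, the erythroid transcription factor, differed by 0.23 and Fech, which inserts iron into heme, by 0.14. The other, dimmer Fech probe sets differed by -0.06, 0.01 and -0.07. Of 22 neutrophil genes, 17 were higher, 4 of them with an unadjusted limma p under 0.05 (S100a8, S100a9, Ngp and Ltf), and none was lower at that p. The medians were 0.08 for the erythroid and 0.11 for the neutrophil list, 0.05 for both after quantile normalization, and 0.01 for both without day 80 arrays 2 and 4. In the controls 18 of the 22 neutrophil genes were also higher, none with such a p. How much blood or marrow RNA each sample held was not tested.

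The promoters of S100a8, S100a9 and Alas2 are shown because these genes of different blood lineages were each highest on array 3 and lowest on array 2 at day 80. Each line gives the 250 bases before the start of the gene in RefSeq (build GRCm38.p6), 5′ to 3′ on the strand of the gene. S100a8 (chr3:90668821-90669070, plus strand) and S100a9 (chr3:90695722-90695971, minus strand) have no protein-coding gene between them. Capitals mark TTNNGNAA, the core of sites bound by C/EBP factors of myeloid cells, on either strand in both S100 genes, and GATAA, the core of GATA1 sites of erythroid cells, on either strand in Alas2 (chrX:150547167-150547416, plus strand).
S100a8: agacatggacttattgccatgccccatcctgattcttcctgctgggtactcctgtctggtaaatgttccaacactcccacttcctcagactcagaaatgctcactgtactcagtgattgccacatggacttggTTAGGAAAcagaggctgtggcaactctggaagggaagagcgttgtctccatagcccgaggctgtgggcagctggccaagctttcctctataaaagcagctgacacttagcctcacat
S100a9: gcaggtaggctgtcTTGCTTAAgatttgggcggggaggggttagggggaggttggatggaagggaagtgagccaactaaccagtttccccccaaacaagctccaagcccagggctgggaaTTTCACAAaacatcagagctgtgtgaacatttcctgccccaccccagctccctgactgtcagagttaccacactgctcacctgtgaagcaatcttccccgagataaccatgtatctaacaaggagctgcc
Alas2: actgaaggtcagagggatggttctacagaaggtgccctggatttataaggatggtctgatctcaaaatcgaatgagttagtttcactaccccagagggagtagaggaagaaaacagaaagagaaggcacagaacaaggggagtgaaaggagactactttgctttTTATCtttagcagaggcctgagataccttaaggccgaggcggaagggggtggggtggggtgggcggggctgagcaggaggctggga
The S100a8 window held 1 TTNNGNAA match and the S100a9 window 2. Each motif was marked only in the genes named for it, and the S100a9 window also holds GATAA, left in lower case. Of 23 windows of the neutrophil list's genes, 14 (60.9%) held TTNNGNAA, against 36.8% of all 32851 windows of this length. GATAA was found in 12 of 19 windows (63.2%) of the 17 erythroid genes matched in RefSeq, against 22.6% of all windows. A match is a description of these letters and was not measured as a bound site.

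**Figure D2:**
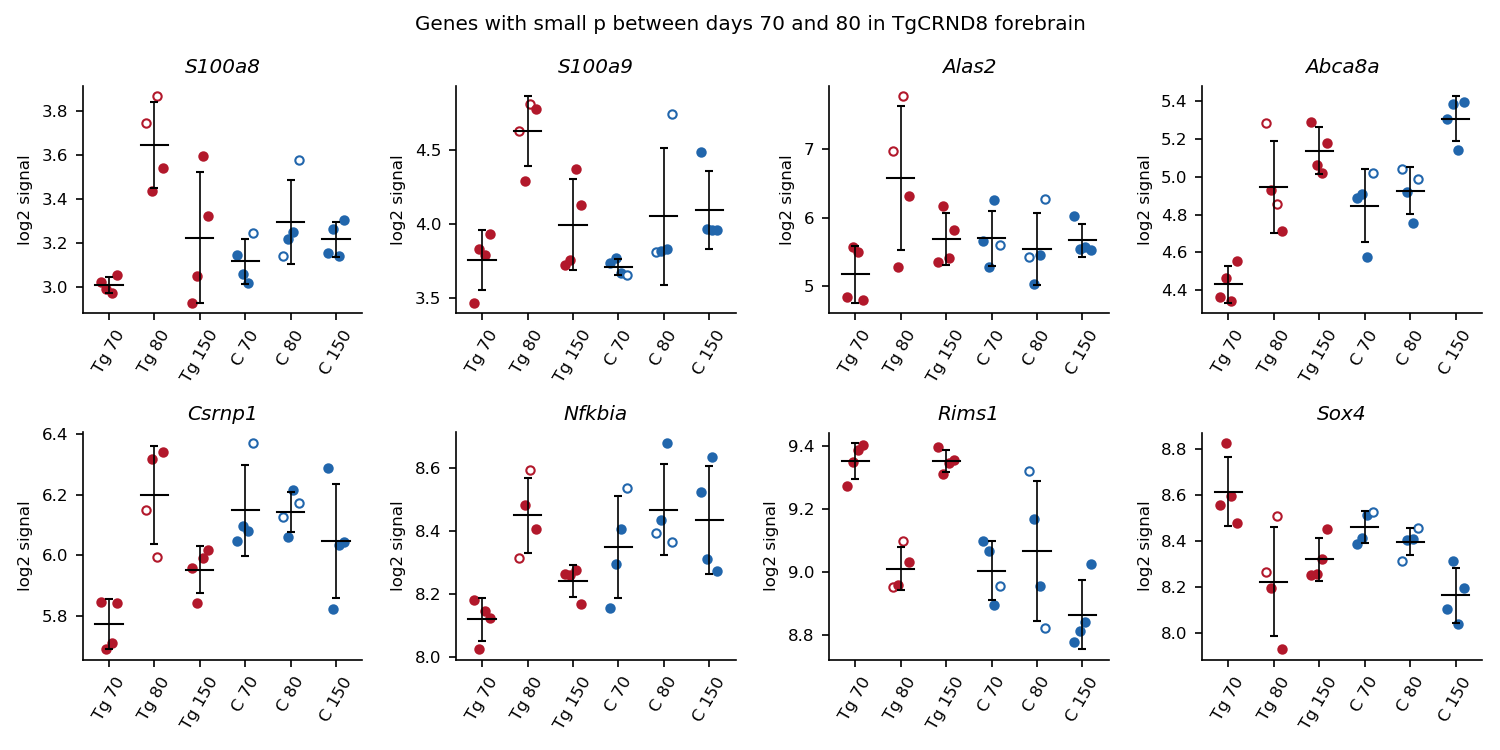
Log2 signal (y) of 8 genes on every array by genotype (Tg, TgCRND8 in red; C, control in blue) and age in days (x); each point is 1 mouse, open points are arrays with low Xist, and bars give the group mean ± SD. S100a8, S100a9, Abca8a, Csrnp1, Nfkbia and Rims1 separate all Tg 80 from all Tg 70 arrays, whereas Alas2 and Sox4 overlap on 1 array.

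Most listed stress hormone targets had a higher mean at day 80, in TgCRND8 mice and in controls, and none passed the adjusted test in TgCRND8 mice. Glucocorticoids, the adrenal hormones released under stress and in a daily rhythm, enter the brain and raise a set of genes through the receptor Nr3c1. Of 20 listed targets and receptors, 18 were higher at day 80 in TgCRND8 mice, 8 with an unadjusted limma p under 0.05 and none lower at that p (background 3.69% and 2.02%). Their median difference was 0.16 (0.20 after quantile normalization, 0.11 with only high-Xist arrays, 0.28 without day 80 arrays 2 and 4). In the controls 15 of the 20 were higher, 4 with such a p (background 1.69% higher and 1.55% lower), with a median of 0.11. In TgCRND8 mice the list lay between -0.14 and -0.03 at day 70 and at 0.11, 0.10, 0.23 and -0.06 at day 80, so that day 80 array 4 was within the day 70 range. Nfkbia, the inhibitor of NF-κB, was 8.18, 8.02, 8.15 and 8.13 at day 70 and 8.32, 8.48, 8.59 and 8.41 at day 80, without overlap, a difference of 0.33 ± 0.09 (SE; limma adjusted p = 0.823). The 4 other Nfkbia probe sets were also higher, by 0.23 to 0.31. Sgk1, a kinase that regulates ion transport, was 7.96, 8.21, 8.21 and 7.94 at day 70 and 8.46, 8.39, 9.45 and 8.01 at day 80. Its difference of 0.50 rested largely on array 3: it was 0.20 without it, 0.12 with only high-Xist arrays and 0.88 without arrays 2 and 4. Plin4, a lipid droplet coat protein, was 3.47, 3.36, 3.41 and 3.66 at day 70 and 3.71, 3.53, 3.91 and 3.99 at day 80, a difference of 0.31. Plin4 and Tsc22d3 (GILZ, an anti-inflammatory target, 0.22) had control differences of -0.04 and -0.02, while Per1 (a clock gene, 0.27), Sult1a1 (a sulfotransferase, 0.35) and Cdkn1a (the cell cycle inhibitor p21, 0.33) had control differences of 0.29, 0.30 and 0.25. Fkbp5, which dampens the receptor, differed by 0.16 (0.31 without arrays 2 and 4), and Nr3c1 itself by -0.10.

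Immediate early genes, transcribed within minutes of neuronal firing without new protein synthesis, were also mostly higher. Of 34 listed genes, 25 were higher at day 80, 7 with an unadjusted limma p under 0.05 and none lower at that p. The median difference was 0.10 (0.12 after quantile normalization), against 0.05 in the controls, where 25 of 34 were likewise higher but 1 higher and 1 lower gene had such a p. The list lay at -0.06, -0.22, 0.01 and -0.02 on the day 70 arrays and at 0.32, -0.002, -0.13 and 0.10 on the day 80 arrays. Day 80 arrays 1 and 4 were thus above the day 70 range, arrays 2 and 3 were within it, and without array 1 the median was 0.05. Fos, a subunit of the AP-1 transcription factor, was 7.22, 6.44, 7.56 and 7.76 at day 70 and 8.29, 7.90, 7.60 and 7.99 at day 80, a difference of 0.70 ± 0.26 (SE; limma adjusted p = 0.848). The lowest day 70 array, array 2, drew its mean down, and without that array the difference was 0.43. Junb, another AP-1 subunit, was 5.97, 5.95, 6.47 and 6.30 at day 70 and 6.92, 6.79, 6.54 and 6.50 at day 80, just without overlap, a difference of 0.52 ± 0.19 (SE). Nr4a1, an orphan nuclear receptor, was 7.72, 7.77, 8.05 and 8.31 at day 70 and 8.81, 8.35, 7.96 and 8.60 at day 80. Dusp1, a phosphatase of MAP kinases that glucocorticoids also raise, was 7.61, 7.61, 8.18 and 7.94 at day 70 and 8.60, 8.28, 7.93 and 8.36 at day 80. For both, array 3 was the lowest of day 80 and lay within the day 70 range. Gadd45b (0.27), a regulator of DNA demethylation, and Trib1 (0.38, and 0.11 without day 80 arrays 2 and 4), a pseudokinase, completed the 7 with Per1.

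Other activity genes were less uniform. Arc, an effector of synaptic plasticity, was 6.51, 6.10, 6.78 and 6.73 at day 70 and 7.56, 7.06, 6.20 and 7.24 at day 80, so that 3 arrays were above the day 70 range and array 3 was within it (difference 0.48, limma adjusted p = 0.868). Egr1, a zinc finger factor, differed by 0.33 with a range of 9.60 to 10.87 at day 80 that enclosed the whole day 70 range of 9.62 to 10.26. Npas4, which responds to calcium entry, went the other way at -0.42 (-0.24 without day 80 arrays 2 and 4), with 5.33, 4.98, 5.55 and 5.23 at day 70 and 5.52, 4.84, 4.55 and 4.52 at day 80. For Fos the day 70 TgCRND8 mean of 7.24 was the lowest of the 6 groups, the others lying between 7.84 (control day 70) and 8.38 (control day 150). The TgCRND8 step exceeded the control step by 0.50 for Fos and by 0.55 for Dusp1 (limma adjusted p = 0.9998 for both). Handling before death and time of day were not given in the sources used here, and their part was not tested.

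Promoter windows of 4 of these genes are shown as examples. All 4 hold the motif marked below, which 19 of the list's 37 windows held. Capitals mark TGACG, the half-site of the cAMP response element bound by CREB, on either strand, in the 250 bases before the start of Fos (chr12:85473640-85473889, plus strand), Junb (chr8:84978749-84978998, minus strand), Nr4a1 (chr15:101266596-101266845, plus strand) and Dusp1 (chr17:26508473-26508722, minus strand), from RefSeq, build GRCm38.p6.
Fos: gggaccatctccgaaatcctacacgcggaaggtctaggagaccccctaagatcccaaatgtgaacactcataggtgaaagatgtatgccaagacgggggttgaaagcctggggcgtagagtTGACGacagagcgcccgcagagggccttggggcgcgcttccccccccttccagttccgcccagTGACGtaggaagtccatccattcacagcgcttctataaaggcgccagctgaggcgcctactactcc
Junb: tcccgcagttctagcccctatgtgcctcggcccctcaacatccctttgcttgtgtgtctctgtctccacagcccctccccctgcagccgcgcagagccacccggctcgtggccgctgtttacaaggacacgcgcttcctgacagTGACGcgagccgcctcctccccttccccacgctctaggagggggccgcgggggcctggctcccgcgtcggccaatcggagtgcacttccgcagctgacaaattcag
Nr4a1: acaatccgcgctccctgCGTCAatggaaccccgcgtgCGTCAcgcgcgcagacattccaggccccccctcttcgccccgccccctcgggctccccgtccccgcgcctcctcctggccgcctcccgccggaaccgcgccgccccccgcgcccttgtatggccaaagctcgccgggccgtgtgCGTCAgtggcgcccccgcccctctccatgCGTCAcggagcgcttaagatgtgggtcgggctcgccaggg
Dusp1: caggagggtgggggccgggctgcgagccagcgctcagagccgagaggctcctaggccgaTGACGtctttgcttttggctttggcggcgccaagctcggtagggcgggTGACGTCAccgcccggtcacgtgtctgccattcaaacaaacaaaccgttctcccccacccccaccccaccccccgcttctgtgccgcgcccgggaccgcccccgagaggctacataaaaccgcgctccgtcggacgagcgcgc
The windows held 2, 1, 4 and 3 matches, and the neighbouring matches in Dusp1 overlap as a full palindromic element. Of the 34 genes, 24 were matched in the RefSeq promoters, with 37 windows, since a gene can have several starts. Of these 37 windows, 19 (51.4%) held TGACG, against 17.8% of all 32851 windows.

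**Figure D3:**
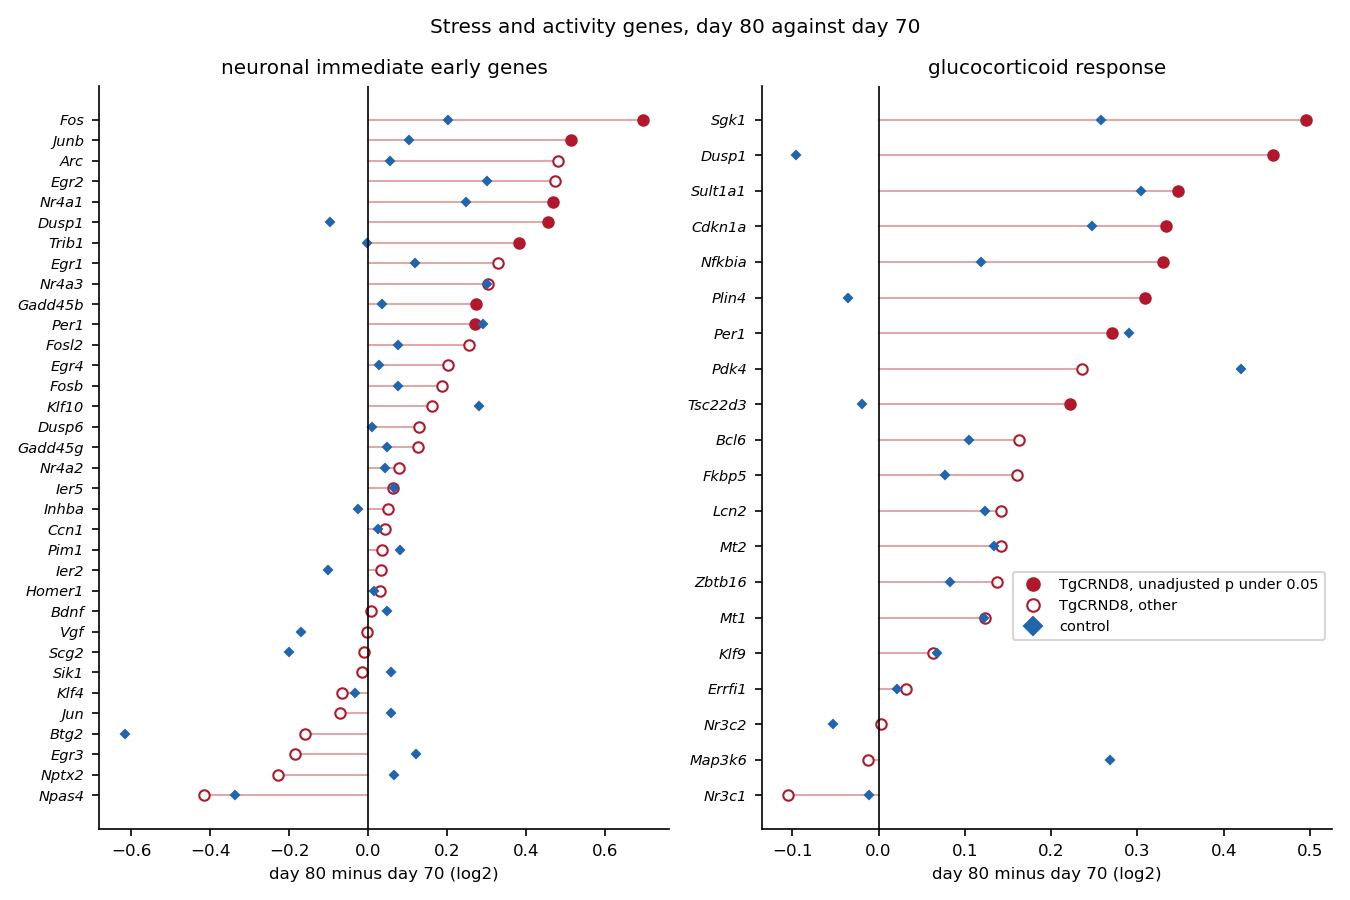
Day 80 minus day 70 difference (x, log2) of every measured member (y) of the immediate early gene list (left, 34 genes) and the glucocorticoid list (right, 20 genes). Circles are TgCRND8, filled where the unadjusted limma p is under 0.05, and diamonds are controls; most circles lie right of 0, and for several glucocorticoid members the control diamond lies close to the circle.

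Beyond these groups, the smallest p among higher genes belonged to Abca8a, Csrnp1, Adipor2, Natd1, Cyp3a25, Ccl6 and Il9. Abca8a, a lipid transporter, was 4.36, 4.47, 4.34 and 4.55 at day 70 and 5.28, 4.93, 4.86 and 4.71 at day 80, a difference of 0.52 ± 0.11 (SE; limma adjusted p = 0.33). Csrnp1, a nuclear protein induced by AXIN1, was 5.84, 5.69, 5.71 and 5.84 at day 70 and 6.15, 6.32, 5.99 and 6.34 at day 80, a difference of 0.43 ± 0.09 (SE; limma adjusted p = 0.348). Neither overlapped, and for both the TgCRND8 day 70 group had the lowest mean of the 6 groups: control means at days 70 and 80 were 4.85 and 4.93 for Abca8a and 6.15 and 6.14 for Csrnp1. Csrnp1 passed the adjusted test with only high-Xist arrays (0.56, limma adjusted p = 0.0212; 0.61 and 0.0291 when quantile normalized). Adipor2, an adiponectin receptor, was 7.67, 7.56, 7.62 and 7.63 at day 70 and 7.90, 7.91, 8.13 and 7.93 at day 80, a difference of 0.35 ± 0.08 (SE; limma adjusted p = 0.471), with a control difference of 0.16. Natd1 differed by 0.29 against -0.05 in the controls. The cytochrome Cyp3a25 (0.31) and the cytokine Il9 (0.36) also did not overlap, Cyp3a25 at a level within the lowest 3% of genes.

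The 10 lower genes with the smallest p had varied functions. 1500004A13Rik, a transcript known from a RIKEN clone, was 6.94, 6.98, 6.92 and 6.74 at day 70 and 6.73, 6.41, 6.42 and 6.23 at day 80, a difference of -0.45 ± 0.09 (SE; limma adjusted p = 0.33). Without day 80 array 1 it passed the adjusted test at -0.54, together with Neurl1b. The other, dimmer probe sets of 1500004A13Rik differed by -0.17 and, in the opposite direction, by 0.19. Kcnh7, a voltage-gated potassium channel subunit, was 5.57, 5.66, 5.58 and 5.21 at day 70 and 5.20, 4.96, 5.17 and 4.97 at day 80, just without overlap (difference -0.43, limma adjusted p = 0.425). Cc2d1b, a regulator of endosomal sorting, was 5.91, 5.75, 5.85 and 5.73 at day 70 and 5.58, 5.35, 5.57 and 5.50 at day 80, a difference of -0.31 ± 0.07 (SE; limma adjusted p = 0.539). Its controls differed by 0.14 in the opposite direction, and the difference between steps, -0.45, had the smallest p of all genes in that test but did not pass (limma adjusted p = 0.9998). Its second probe set differed by -0.04. Sox4, a transcription factor of immature neurons and glia, was 8.56, 8.83, 8.60 and 8.48 at day 70 and 8.26, 8.20, 8.51 and 7.93 at day 80, a difference of -0.39 on its brightest probe set and between -0.17 and 0.09 on the 7 others. Abi3bp, an extracellular matrix protein, had the widest difference of the 10, -0.79, and a wide spread, at 4.41, 4.94, 4.3 and 3.97 at day 70 and 4.10, 3.25, 3.84 and 3.28 at day 80. Zkscan4 (-0.41), Plcd3 (-0.36), Kcnmb4os2 (-0.34) and 4632427E13Rik (-0.27) also belong to the 10, as does Rims1, described with the synaptic genes. Without day 80 arrays 2 and 4 Sox4 was -0.23, Kcnmb4os2 -0.21 and Abi3bp -0.44. With only high-Xist arrays, 1500004A13Rik, Kcnh7, Cc2d1b, Sox4, Kcnmb4os2 and Abi3bp passed the adjusted test, at -0.58, -0.54, -0.39, -0.55, -0.47 and -1.14.

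Most listed genes of the synapse had a slightly lower mean at day 80, and the list means were lower on arrays 2 and 3. Rims1, a scaffold of the presynaptic active zone, was 9.27, 9.35, 9.38 and 9.40 at day 70 and 8.95, 8.96, 9.10 and 9.03 at day 80, without overlap, a difference of -0.34 ± 0.09 (SE; limma adjusted p = 0.642). Control means were 9.0 and 9.07, and the TgCRND8 mean at day 150 was 9.35, so the day 80 arrays stood at the control level and the other TgCRND8 ages above it. The second Rims1 probe set, nearly as bright, differed by -0.18. Of 23 synaptic vesicle and release genes, 18 were lower, 3 of them with an unadjusted limma p under 0.05 and none higher at that p (background 2.02% lower): Rims1, Ppfia3 (liprin-α3, -0.18) and Cplx2 (complexin 2, a clamp of fusion, -0.15). Their median was -0.10, and -0.06 after quantile normalization. The list lay between -0.03 and 0.11 on the day 70 arrays and at 0.08, -0.17, -0.17 and 0.07 on the day 80 arrays, so that arrays 1 and 4 were within the day 70 range. Without array 3 the median was -0.03, and without array 2 it was -0.05. Of 22 postsynaptic density and receptor genes, 19 were lower with a median of -0.11, but 13 were lower with a median of -0.08 after quantile normalization, and 12 with a median of -0.006 without day 80 arrays 2 and 4. Postsynaptic genes lay between -0.002 and 0.09 at day 70 and at 0.11, -0.17, -0.10 and -0.009 at day 80, with array 1 the highest of the 8 arrays. Of 20 potassium channel genes 17 were lower, with a median of -0.09 (-0.05 after quantile normalization, and -0.02 with 11 lower without day 80 arrays 2 and 4), and array 1 (0.11) was again above every day 70 array. Of 22 striatal projection neuron genes 18 were lower, with a median of -0.11 (-0.07 after quantile normalization, -0.05 without arrays 2 and 4). The striatal list lay between -0.09 and 0.15 on the day 70 arrays. At day 80 it lay at -0.007, -0.19, 0.04 and -0.06, so that only array 2 was below the day 70 range.

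Plaque-associated glial genes stood near their day 70 level at day 80. Gfap was 7.29, 7.46, 7.50 and 7.49 at day 70 and 7.27, 7.67, 7.87 and 7.79 at day 80, so that array 1 was lowest of all and the other 3 were above the day 70 range (difference 0.21 ± 0.14 SE, limma adjusted p = 0.893). Its mean at day 150 was 8.56. Vim, another astrocyte filament, differed by 0.11. Cst7 was 3.05, 3.04, 3.0 and 3.03 at day 70 and 2.98, 3.35, 3.16 and 3.27 at day 80, against a mean of 4.55 at day 150, and the control step for Cst7 was as large (0.17 against 0.16). Without day 80 arrays 2 and 4 the Cst7 difference was 0.04 and that of Gfap 0.14, and with only high-Xist arrays Cst7 was 0.28. Tyrobp (0.08), Trem2 (0.18), C1qa (0.01, a complement subunit) and Cd68 (-0.07, a lysosomal protein of phagocytes) did not differ beyond their spread. Mpeg1, the pore-forming perforin-2 of macrophages, was 5.15, 5.19, 4.90 and 5.16 at day 70 and 5.12, 5.43, 5.54 and 5.26 at day 80, a difference of 0.24 (limma adjusted p = 0.873). Ccl6, a macrophage chemokine, was 3.20, 3.32, 3.08 and 3.03 at day 70 and 3.41, 3.78, 3.61 and 3.39 at day 80, without overlap. The Ccl6 difference was 0.39 ± 0.10 (SE; limma adjusted p = 0.761) against 0.04 in the controls, its day 80 mean of 3.55 was near the day 150 mean of 3.66, and a second, dimmer probe set differed by -0.04.

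By list, 18 of 27 plaque-associated microglial genes were higher, 2 with an unadjusted limma p under 0.05 and none lower (median 0.04, and 0.04 after quantile normalization), and 10 of 19 homeostatic microglial genes were higher (median 0.01, 0.03 after quantile normalization). Reactive astrocyte genes were higher in 24 of 29 cases, with a median of 0.08 (0.07 and 20 of 29 after quantile normalization, 0.03 and 19 of 29 in the controls). Only Fbln5, an elastic fibre protein, had an unadjusted limma p under 0.05 in that list, with 4.93, 4.74, 4.77 and 4.39 at day 70 and 4.96, 5.17, 5.08 and 5.08 at day 80. All 15 antigen presentation genes were higher, with a median of 0.12, but 12 were higher with a median of 0.09 after quantile normalization and 12 with a median of 0.07 without day 80 arrays 2 and 4. In the controls 10 of 15 were higher, with a median of 0.06. The list lay between -0.08 and -0.04 on the day 70 arrays and at -0.04, -0.01, 0.07 and 0.22 on the day 80 arrays, and its median was 0.05 without array 4. Their leading members were Cd74, the invariant chain (0.32), and H2-Eb1, a class II subunit (0.30, and 0.14 without day 80 arrays 2 and 4). Cd74 was 4.78, 4.89, 4.85 and 4.76 at day 70 and 4.96, 4.78, 5.30 and 5.50 at day 80, with array 2 inside the day 70 range. Interferon-stimulated genes were higher in 14 of 20 cases, and their median of 0.08 became 0.04 after quantile normalization.

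**Figure D4:**
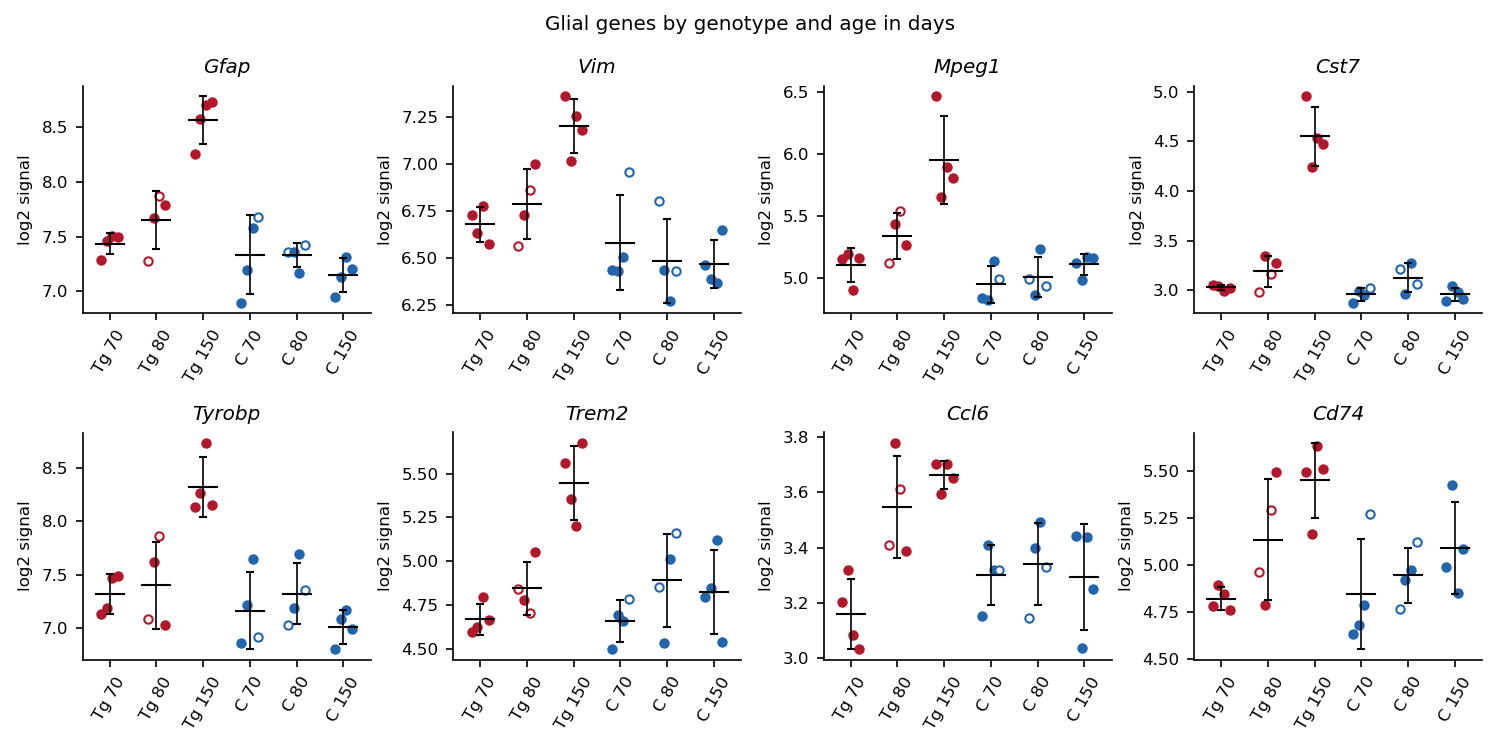
Log2 signal (y) of 8 glial and antigen presentation genes on every array by genotype (Tg, TgCRND8 in red; C, control in blue) and age in days (x), with open points for low Xist and bars for the mean ± SD. Tg 80 lies near Tg 70 and below Tg 150 for Gfap, Vim, Mpeg1, Cst7, Tyrobp and Trem2, whereas Ccl6 at Tg 80 (mean 3.55) is near Tg 150 (3.66).

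Genes of the amyloid pathway itself differed little. App was 11.84, 11.80, 11.85 and 11.75 at day 70 and 12.02, 11.78, 11.78 and 12.10 at day 80 (difference 0.11, limma adjusted p = 0.91), and Prnp, the mouse prion protein gene, differed by 0.04. The App mean of 11.81 in TgCRND8 mice at day 70 did not exceed the control mean of 11.90, so the mouse probe set gives no check of the genotype. Of 22 genes of precursor processing, 8 were higher and 14 lower (median -0.02, and 0.02 with 13 higher after quantile normalization), with 1 lower at an unadjusted limma p under 0.05. Prmt3, an arginine methyltransferase, was 5.83, 6.16, 6.11 and 5.58 at day 70 and 6.70, 6.12, 5.98 and 5.76 at day 80, with control means of 6.73 and 6.42.

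Protein folding, lipid and myelin genes showed small steps. Hspa5, the main chaperone of the endoplasmic reticulum, was 9.86, 9.76, 9.72 and 9.83 at day 70 and 10.29, 9.99, 9.74 and 10.25 at day 80, a difference of 0.27 (limma adjusted p = 0.862) against -0.07 in the controls. Of 26 unfolded protein response genes, 16 were higher in TgCRND8 mice (median 0.03, and 21 with a median of 0.07 after quantile normalization), whereas 2 of 26 were higher in the controls (median -0.08). The difference between both steps had a median of 0.13 over these genes, 1 of them with an unadjusted limma p under 0.05 (background 2.64%). On the day 70 arrays the list lay between -0.04 and -0.003. At day 80 it lay at 0.05, -0.02, 0.01 and 0.03, with array 2 inside the day 70 range. Cholesterol synthesis genes were lower in 16 of 20 cases (median -0.08, -0.03 after quantile normalization), none with an unadjusted limma p under 0.05. Among them Hmgcs1, which makes the precursor of mevalonate, differed by -0.20, and Sqle, squalene epoxidase, by -0.17. Myelin genes had 10 of 22 higher with a median of -0.009 (0.02 after quantile normalization), against 3 of 22 and -0.12 in the controls. These 22 include the neuropeptide gene Trh, matched by symbol in place of the listed Trf. Trh counts as higher in both genotypes, by 0.02 and 0.002. Ugt8a, which makes the myelin lipid galactosylceramide, was lower by similar amounts in both genotypes (-0.22 and -0.27), while Mbp (-0.01), Mag (0.12) and Mog (-0.19) had no common direction. Mog was -0.46 with only high-Xist arrays, where it passed the adjusted test (limma adjusted p = 0.0477), and 0.08 without day 80 arrays 2 and 4. Cytosolic ribosomal protein genes were lower in 25 of 27 cases with a median of -0.07 (-0.05 after quantile normalization), against a median of 0.05 in the controls, and none had an unadjusted limma p under 0.05. The list lay between -0.08 and 0.15 on the day 70 arrays and at -0.11, 0.07, 0.11 and -0.20 on the day 80 arrays, with arrays 2 and 3 inside the day 70 range. The median was -0.03 without arrays 2 and 4 and -0.008 without array 4 alone.

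**Figure D5:**
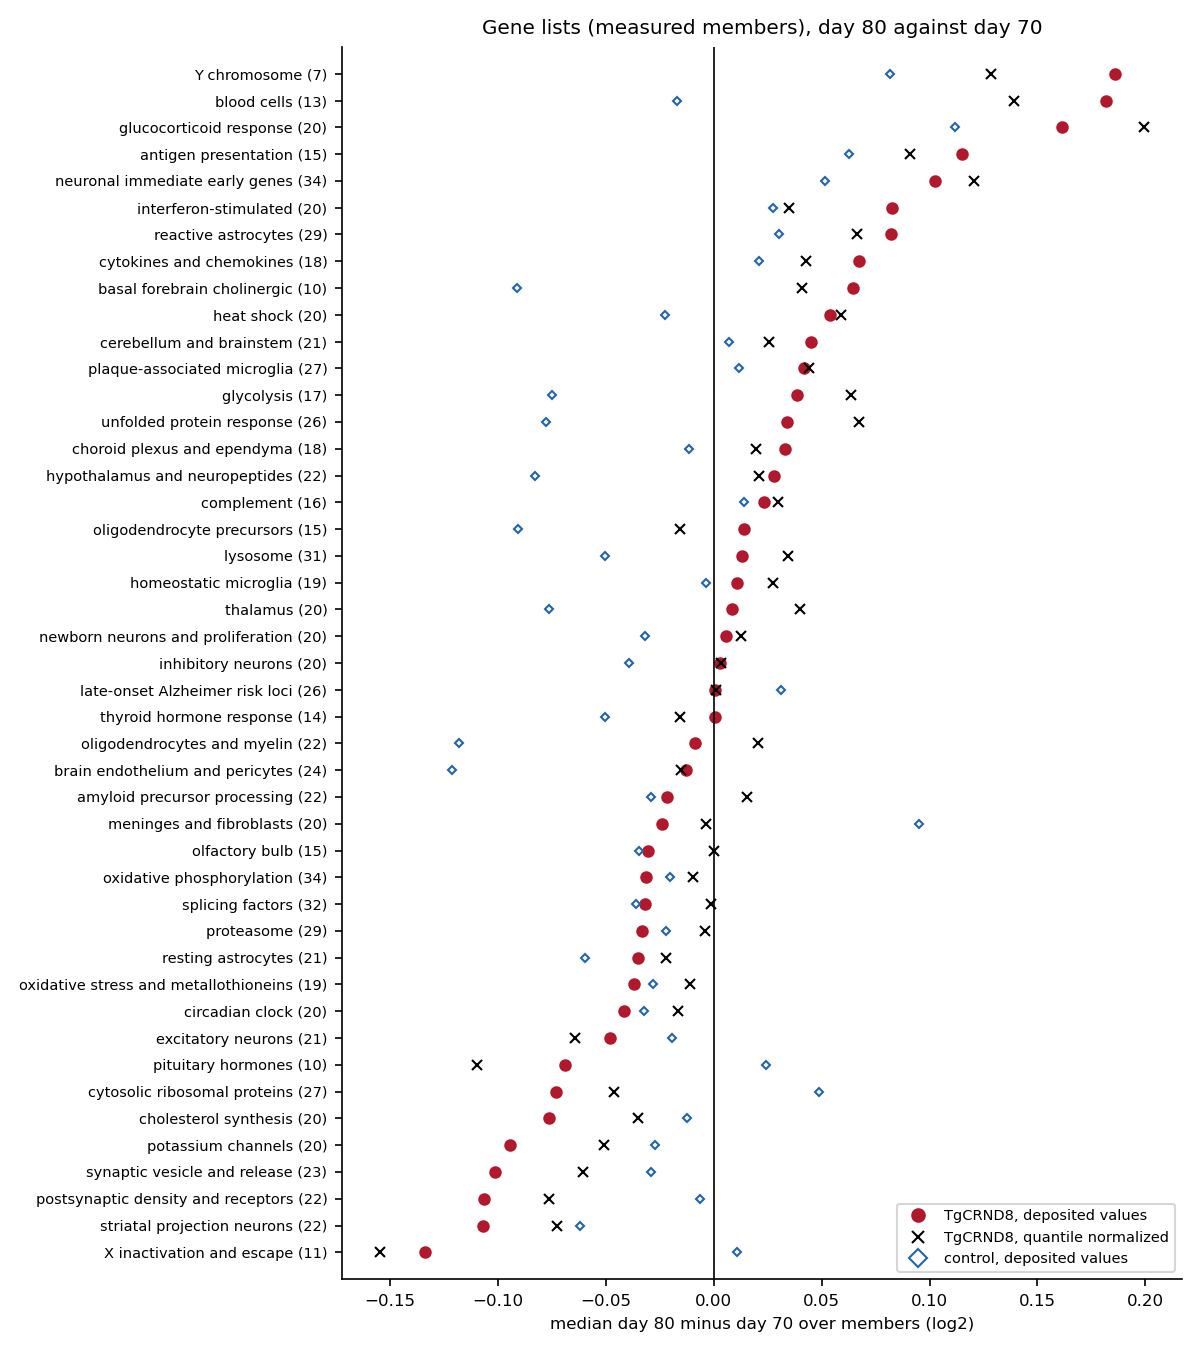
Median day 80 minus day 70 difference (x, log2) over the measured members of each of 45 gene lists (y, number of members in brackets) in TgCRND8 mice as deposited (filled circles) and after quantile normalization (crosses), and in the controls (open diamonds). Blood cell (0.18) and glucocorticoid (0.16) lists stand highest apart from the sex-linked list, synaptic and striatal lists stand lowest apart from the X-linked list, with crosses nearer to 0, and no list's median exceeds 0.20 in size in these settings.

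Markers of tissue that the dissection could have carried along were compared between the ages. Pituitary hormone genes varied between single arrays: Pomc averaged 6.66 at day 70 and 6.09 at day 80 and Gh 5.02 and 4.46, with 3 of 10 hormone genes higher (median -0.07, -0.11 after quantile normalization). Cerebellum and brainstem markers were higher in 16 of 21 cases (median 0.05, 0.03 after quantile normalization), but in 8 of 21 without day 80 arrays 2 and 4 (median -0.02), and their median was 0.12 with only high-Xist arrays. Choroid plexus and ependyma genes were higher in 14 of 18 cases (median 0.03), but in 9 of 18 after quantile normalization (median 0.02) and in 8 of 18 with only high-Xist arrays (median -0.002). Olfactory bulb genes were higher in 7 of 15 cases (median -0.03), and in 8 after quantile normalization. Among sex-linked genes, all 7 Y chromosome genes were higher at day 80 (median 0.19), with 1, Eif2s3y, at an unadjusted limma p under 0.05. After quantile normalization 6 of these genes were higher (median 0.13), and in the controls all 7 were (median 0.08). Their list lay between -0.21 and -0.16 at day 70 and at 0.53, -0.09, 0.41 and -0.09 at day 80. It was thus highest on the low-Xist arrays 1 and 3, but arrays 2 and 4 also lay above the day 70 range. Dim genes as a whole read higher on arrays 2 and 4, and this list was dim, with a median level of 3.37. Whether these features are linked was not tested. Of 11 genes of X inactivation or escape 7 were lower, including Ddx3x (-0.17), an RNA helicase that escapes inactivation. With only high-Xist arrays the median of the Y chromosome genes was 0.07 and that of the X genes -0.04. The part of sex in the other differences was not tested beyond the high-Xist values and a fit with Xist as a covariate. That fit gave 0 genes past the adjusted test and 1971 with an unadjusted limma p under 0.05, against 1040 in the main fit.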

How the data were processed

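Forebrain RNA of 24 mice was measured on 1 Affymetrix array each, and the deposited series table holds 45101 probe sets. Its values are log2 signals as deposited by the authors. The software and normalization behind them are not given in the sources used here. Array medians lay between 4.28 and 4.38. Of the probe sets, 64 were controls, 34945 carried 1 gene symbol in the platform annotation, 932 several and 9160 none. Each of 18193 genes was represented by 1 probe set, that of the highest 24-array mean. The array number limits the precision.

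A linear model with 6 group means was fitted with limma 3.58.1 in R 4.3.3, with 18 residual degrees of freedom, and contrasts gave day 80 minus day 70 in TgCRND8 mice, in controls, and their difference. Benjamini-Hochberg adjustment covered all 18193 genes, with a threshold of 0.05. The labels call arrays biological replicates. Genes named are the 10 with the smallest p in each direction, up to 5 with the smallest p in each of 45 lists, and a fixed set. The members and lists were chosen with earlier results of these data known. Blood lineage lists, promoters and a few genes of alternative settings were added after the values were seen. Figures were drawn with matplotlib 3.10.9. The fit was tested on simulated data. The complement gene C4b was not analysed here.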

Additional observations from a re-analysis of the deposited data

Results flagged for a closer look

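Among 158 groups of 4 arrays tested for a single array far from the rest (79 genes in the TgCRND8 groups at days 70 and 80), 8 had one, where chance gives about 1 in 20 groups. At day 80, Adipor2 was 8.13 on array 3, with the next array at 7.93. The other 7 were at day 70. Mpeg1 was 4.90 on array 3, with the nearest at 5.15, which widened its mean difference at day 80. Itgb2, an integrin subunit of leukocytes, was 3.46 on array 1, with the nearest at 3.67. Bst2, an interferon-stimulated membrane protein, was 4.38 on array 3, with the nearest at 4.57. Apba1, an adaptor that binds the amyloid precursor protein, was 6.54 on array 3, with the nearest at 6.43. Ugt8a was 8.41 on array 4, with the nearest at 8.64. Hk2, a hexokinase, was 3.75 on array 1, with the nearest at 3.85. Hmgcs1 was 10.8 on array 2, with the nearest at 10.6.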

How the results depend on the processing

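The count of 0 genes passing for TgCRND8 day 80 against day 70 was also 0 after quantile normalization, median centring, removal of the dimmest 40%, averaged probe sets, a trended robust fit, array weights, Xist as a covariate, only the arrays compared, all probe sets and a threshold of 0.1. It was 162 with only high-Xist arrays. Of the alternatives added after the data were seen, it was 51 with those arrays kept after quantile normalization of all 24, and 3 without day 80 arrays 2 and 4. Leaving out each array in turn gave 0 to 2. With the replicate block the count was 0, with 1205 genes at an unadjusted p under 0.05. Its lowest limma adjusted p was 0.0751, against 0.164 in the main fit. Same-numbered TgCRND8 arrays of days 70 and 80 correlated at -0.13, -0.19, 0.35 and 0.05 as deviations from their group means. Values from so few arrays cannot decide whether the numbers pair the mice. The controls and the difference between steps gave 0 in every setting run. Over 79 genes and their settings, 1521 of 1563 values kept direction and side of the threshold, 24 newly passed, and 18 changed sign. Sign changes without an array, given as ranges of the difference, were -0.074 to 0.20 for Tyrobp, -0.045 to 0.086 for C1qa, -0.0065 to 0.076 for Prnp, -0.044 to 0.038 for Mbp and -0.018 to 0.22 for Mag. Without day 80 arrays 2 and 4, Cd68 was 0.0069, C1qa -0.013 and Mog 0.077. With averaged probe sets, Apba1 was 0.028, Mbp 0.012 and Mcm3, a replication licensing factor, 0.041. Mbp was 0.011 with Xist as a covariate, 0.063 with only high-Xist arrays and 0.039 with these quantile normalized, where Tent5c was -0.063. The cause was not tested. With 4 arrays a group, dim genes near the lower quartile (3.15 to 3.32) understate differences.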
